A study of Mus musculus with 4 samples.

Results

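The genes of cholesterol and fatty acid synthesis were followed in mouse long-term haematopoietic stem cells across 4 doses of γ-irradiation. The set holds 29 genes out of 23185 named genes on the array: 6 enzymes of the mevalonate steps, 11 enzymes from squalene to cholesterol, 6 regulators and 6 genes of fatty acid synthesis. Members were taken by symbol from a list, with no filter on level, and all 29 had a probe set defined by their Entrez gene. The list was chosen with earlier results of these data known. Lin- ckit+ Sca+ marrow cells had received 0, 0.02, 0.1 or 0.5 Gy of γ-rays and had then been given to lethally irradiated recipient mice, also in the 0 Gy group. At 6 months after the transplantation Lin- ckit+ Sca+ Flk2- CD48- CD150+ cells were sorted from bone marrow. Each dose had 1 array, so a difference between 2 doses has no test and no replicate check, and any p-value below rests on the spread between doses. The labels give neither age, sex and strain of the mice nor pooling of animals, and the sort names no marker that tells donor from recipient cells.

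Cholesterol is built from acetyl-CoA through mevalonate, isoprenoid diphosphates, squalene and lanosterol, and the later steps take place in the membrane of the endoplasmic reticulum. SREBP transcription factors, encoded by Srebf1 and Srebf2, switch on these genes when sterols are scarce: the escort protein Scap carries them to the Golgi for cleavage, and the Insig proteins hold Scap back when sterols are plentiful. SREBP-2 acts mainly on cholesterol genes and SREBP-1c mainly on genes of fatty acid synthesis, and Insig1 is itself an SREBP target, which makes it a common readout of the pathway.

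The deposited values are log2 intensities, given below for each array; a difference of 1 is a doubling, and 1.5-fold, the level used here to call a gene higher or lower, is a difference of 0.58. Medians over all 25206 probe sets lay between 4.01 and 4.07 on the 4 arrays. The median of all gene means, 4.06, served as a filter level for weak signals; 28 members had a mean at or above it, and Insig2, with a mean of 3.98, did not. All 8 measured long-term stem cell markers were at or above that level on all 4 arrays. Many values in the deposited table are exactly equal between arrays. At least 1 tie was found in 57.4% of named genes and in 11 of the 29 members, and a difference of 0.00 below usually stands for such a tie.

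At 0.5 Gy, 5 of the 17 cholesterol enzymes and the regulator Insig1 were at least 1.5-fold higher than at 0 Gy, and 2 of the 6 fatty acid genes were at least 1.5-fold lower. Past the 1.5-fold level lay 6 of the 29 members on the higher side and 2 on the lower side. On the higher side lay also 4.36% of all named genes and 5.92% of the 11593 genes at or above the filter level, and on the lower side 5.39% and 8.25%. The 6 higher genes were Idi1, Hsd17b7, Msmo1, Mvd, Insig1 and Hmgcs1, which are 5 enzymes of the cholesterol route and the sterol-responsive regulator Insig1. The 2 lower genes, Elovl6 and Acaca, belong to fatty acid synthesis. The median difference was 0.26 over the members and 0.00 over all named genes. It was 0.55 for the 6 mevalonate genes, 0.34 for the 11 later sterol enzymes, 0.02 for the 6 regulators and -0.03 for the 6 fatty acid genes. Of the 17 enzymes from Hmgcs1 to Dhcr7, 16 had a higher value at 0.5 Gy than at 0 Gy and 0 were tied. Among the 16, Lss and Dhcr7 were higher by only 0.002 and 0.04. Of the 23185 named genes, 8771 were higher, 9481 lower and 4933 tied. The exception among the 17 enzymes was Nsdhl, at -0.03. Its difference was 0.01 after quantile normalization or median centring and -0.004 after cyclic loess. The difference between the branches was not tested.

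**Figure D1:**
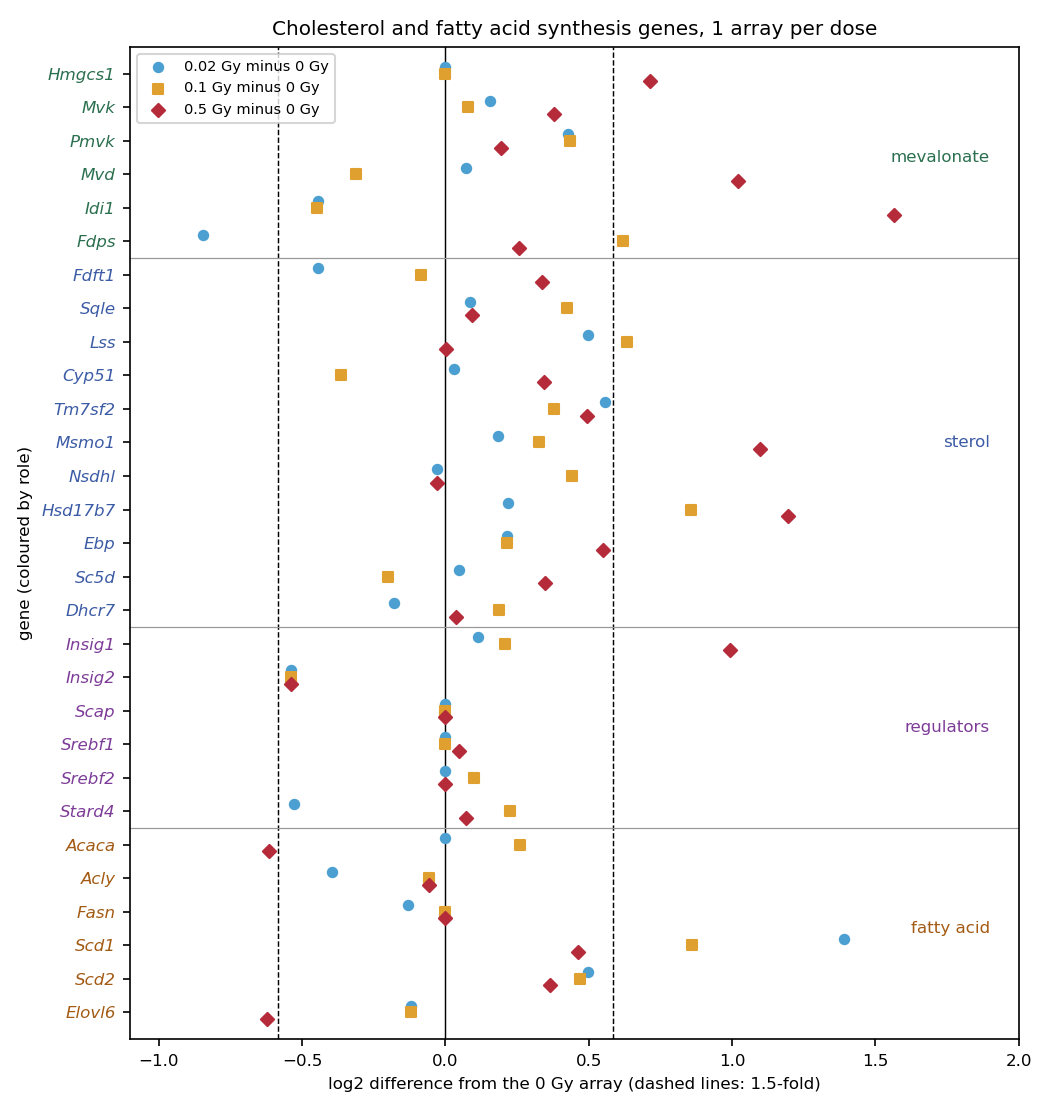
Log2 difference of each of the 29 genes from the 0 Gy array (horizontal axis), with 1 point for each irradiated array; genes are grouped by role, and dashed lines mark 1.5-fold. At 0.5 Gy the points of Idi1, Hsd17b7, Msmo1, Mvd, Insig1 and Hmgcs1 lie right of the upper line, and those of Elovl6 and Acaca left of the lower one.

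The mevalonate steps turn acetyl units into the isoprenoid building block. Idi1, the isomerase that interconverts the 2 activated isoprene units, measured 4.79, 4.34, 4.34 and 6.35 in the arrays for 0, 0.02, 0.1 and 0.5 Gy. The 0.5 Gy array thus stood above all others, at 2.96-fold the 0 Gy value, while the 2 lower doses were below 0 Gy. Only 0.371% of named genes had a difference from 0 Gy as high or higher at 0.5 Gy. For Mvd, the decarboxylase that makes isopentenyl diphosphate, the 4 values in order of dose were 4.38, 4.45, 4.07 and 5.40. The 0.5 Gy value was 2.03-fold the 0 Gy value, and 0.1 Gy gave the lowest of the 4. Hmgcs1, the HMG-CoA synthase at the entry of the route, gave 6.60 at 0, 0.02 and 0.1 Gy, an exact tie, and 7.32 at 0.5 Gy, which is 1.64-fold higher.

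Fdps, the synthase of farnesyl diphosphate, followed another order, with 4.65, 3.81, 5.28 and 4.91 from the lowest to the highest dose. It was 1.80-fold lower at 0.02 Gy and 1.54-fold higher at 0.1 Gy than at 0 Gy, and it was the single member with the 0.02 Gy array at least 1.5-fold below each other array, a pattern seen in 1.48% of genes at or above the filter level. The 2 kinases of the route stayed within 1.5-fold: Mvk, mevalonate kinase, had differences of 0.15, 0.08 and 0.38 at the 3 doses, and Pmvk, phosphomevalonate kinase, 0.43, 0.43 and 0.19. Mvd and Idi1 lay close to the filter level at the 2 lower doses and at 0 Gy, so the size of their difference is uncertain. The difference of Hmgcs1 rests on tied values, and its precision was not measured.

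Among the sterol enzymes the largest differences at 0.5 Gy were those of Hsd17b7 and Msmo1, which both act on the C4-methyl groups that are removed after lanosterol. Hsd17b7, the 3-keto reductase of that step, measured 4.19, 4.40, 5.04 and 5.38 with increasing dose. It was 2.29-fold higher at 0.5 Gy and 1.81-fold higher at 0.1 Gy than at 0 Gy. Its values at 0 and 0.02 Gy lay close to the filter level of 4.06, so the size of these differences is also uncertain. Msmo1, the C4-methyl oxidase, had 6.16, 6.34, 6.48 and 7.25, and so was 2.14-fold higher at 0.5 Gy. Both genes had their 4 values in the order of dose. Nsdhl, the dehydrogenase that works between these 2 enzymes, did not share the pattern: it had differences of -0.03, 0.44 and -0.03.

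The other 8 sterol enzymes were within 1.5-fold of 0 Gy at 0.5 Gy. Ebp, the sterol isomerase, was at 0.55, Tm7sf2, a sterol C14 reductase, at 0.49, Sc5d, the C5 desaturase, at 0.35, Cyp51, the lanosterol demethylase, at 0.34, and Fdft1, squalene synthase, at 0.34. Sqle, the squalene epoxidase that is a rate-limiting step, was at 0.09 and Dhcr7, the last reductase, at 0.04. Lss, which closes the rings to lanosterol, was highest at 0.1 Gy, with 4.81, 5.31, 5.44 and 4.81 on the 4 arrays: it was 1.55-fold higher at 0.1 Gy, and its difference was 0.00 at 0.5 Gy.

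**Figure D2:**
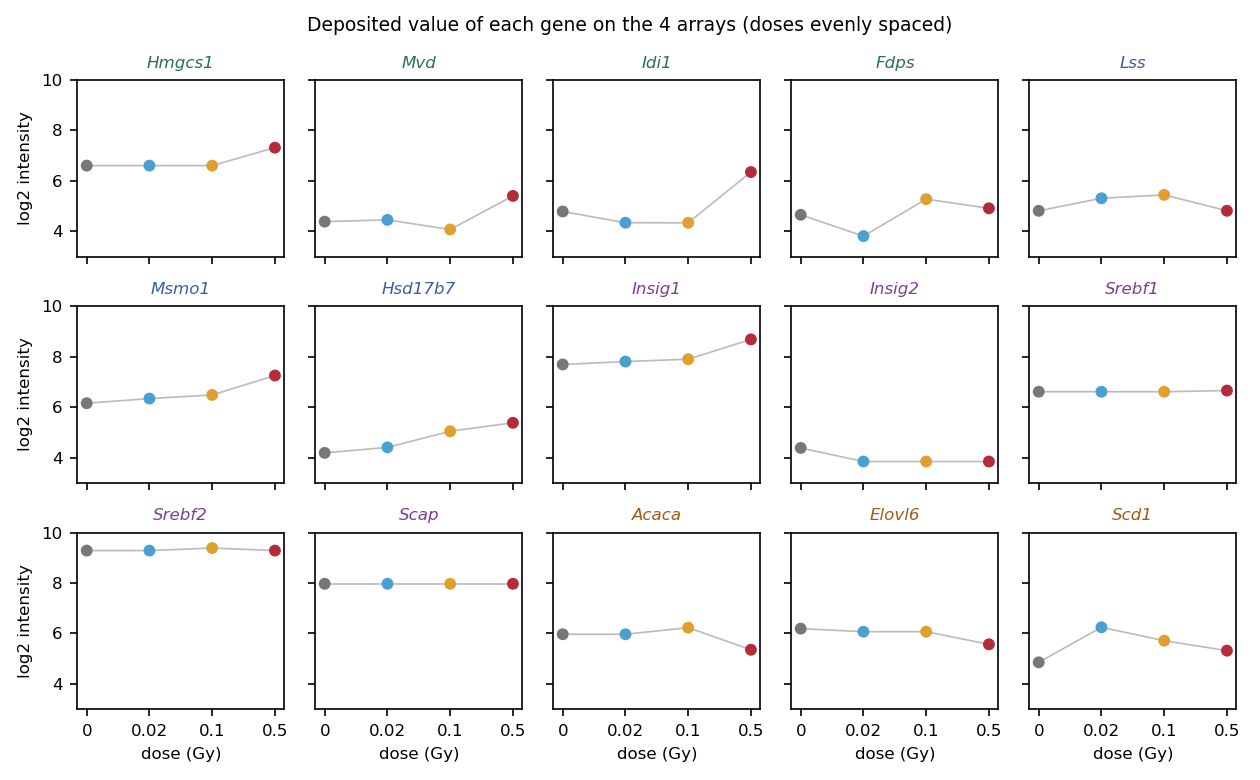
Deposited log2 intensity (vertical axis) of 15 genes on the arrays for 0, 0.02, 0.1 and 0.5 Gy (horizontal axis, doses evenly spaced), 1 point per array. Hmgcs1, Mvd, Idi1, Msmo1 and Insig1 are highest at 0.5 Gy, Scap is flat, and Scd1 is highest at 0.02 Gy.

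Among the transcripts of the SREBP machinery, Srebf1, Srebf2 and Scap differed by at most 0.10, and the 2 Insig genes by more. Insig1 measured 7.69, 7.81, 7.90 and 8.69 with increasing dose, in the order of dose, and was 1.99-fold higher at 0.5 Gy than at 0 Gy. Srebf2 was among the brightest members, with 9.29 on the arrays for 0, 0.02 and 0.5 Gy and 9.39 at 0.1 Gy. Srebf1 had 6.61 on the first 3 arrays and 6.66 at 0.5 Gy. Scap had 7.97 on all 4 arrays, the same value to the last digit. An array signal for Srebf1 or Srebf2 reports transcript level; the activity of SREBP proteins depends on their cleavage and was not measured.

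Insig2, the paralogue of Insig1 that is not induced by SREBP-2 in the same way, was weak: it had 4.38 at 0 Gy and 3.84 on each of the 3 irradiated arrays. The 3 irradiated values were an exact tie and lay below the filter level. Stard4, a cytosolic sterol carrier, had differences of -0.53, 0.23 and 0.07 at 0.02, 0.1 and 0.5 Gy. Insig1 and Insig2 therefore stood on opposite sides of 0 Gy at each dose, by 0.11 and -0.54, 0.21 and -0.54, and 0.99 and -0.54.

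In the fatty acid branch the desaturase Scd1 and the elongase Elovl6 had unlike patterns along the doses. Scd1, which introduces the double bond of oleate, measured 4.85, 6.24, 5.71 and 5.32. All 3 irradiated arrays were above 0 Gy, by 2.62-fold at 0.02 Gy, 1.81-fold at 0.1 Gy and 1.38-fold at 0.5 Gy, so that its difference was largest at the lowest dose. Scd2, another stearoyl-CoA desaturase, was bright, with 9.20, 9.70, 9.67 and 9.57, and was above 0 Gy by 0.36 to 0.50. Both genes lie on chromosome 19 with 1 protein-coding gene between them, and they are close paralogues, so signal shared between their probes cannot be told apart here.

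Acaca, the acetyl-CoA carboxylase that commits carbon to fatty acids, had 5.97, 5.97, 6.23 and 5.35. It was 1.53-fold lower at 0.5 Gy than at 0 Gy. Elovl6, which lengthens palmitate to stearate, had 6.19, 6.07, 6.07 and 5.57 and was 1.54-fold lower at 0.5 Gy. Both are just past the 1.5-fold level, and after quantile normalization both were within it, at -0.54 and -0.55. Fasn, the fatty acid synthase, had differences of -0.13, 0.00 and 0.00, and Acly, which supplies cytosolic acetyl-CoA to both branches, -0.40, -0.06 and -0.06.

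At the 2 lower doses few members reached 1.5-fold. At 0.02 Gy Scd1 was higher and Fdps lower, 1 gene each of 29, where 4.59% of all named genes were higher and 4.27% lower; at or above the filter level these shares were 6.44% and 6.20%. The Fdps value at 0.02 Gy, 3.81, lay below the filter level. The median difference of the members at 0.02 Gy was 0.00. At 0.1 Gy 4 members were higher, namely Fdps, Lss, Hsd17b7 and Scd1, and 0 were lower. The shares of all named genes were 3.99% higher and 4.94% lower, and those at or above the filter level 5.50% and 7.48%. The median of the members at 0.1 Gy was 0.19. Hsd17b7 was the single gene past 1.5-fold at both 0.1 and 0.5 Gy among those higher at 0.5 Gy; no member was past it in the same direction at all 3 doses.

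The comparisons with 0 Gy share 1 array, so the arrays were also set against each other. The 0.5 Gy array exceeded the 0.02 Gy array by 1.5-fold or more in 9 members and fell short of it by as much in 2, with a median difference of 0.22; among genes at or above the filter level, 5.92% were higher and 8.62% lower. Set against 0.1 Gy the numbers were 6 and 2, with a median of 0.00, beside 5.91% and 6.51% of those genes. In 5 members, Hmgcs1, Mvd, Idi1, Msmo1 and Insig1, the 0.5 Gy array stood at least 1.5-fold above each of the other 3. That pattern was found in 1.72% of genes at or above the filter level, and in no member for any other array. In 1 member, Acaca, the 0.5 Gy array stood at least 1.5-fold below each other array, as in 2.36% of those genes; after quantile normalization, median centring or cyclic loess Acaca no longer did. The 0.5 Gy array gave the single highest value in 10 of the 17 cholesterol enzymes, beside 20.8% of genes at or above the filter level. The 0.1 Gy array gave it in 6 of the 17, beside 19.8% of those genes, the 0.02 Gy array in 1, beside 21.3%, and the 0 Gy array in 0, beside 24.5%. The single lowest value was that of the 0 Gy array in 8 of the 17, beside 17.9%.

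**Figure D3:**
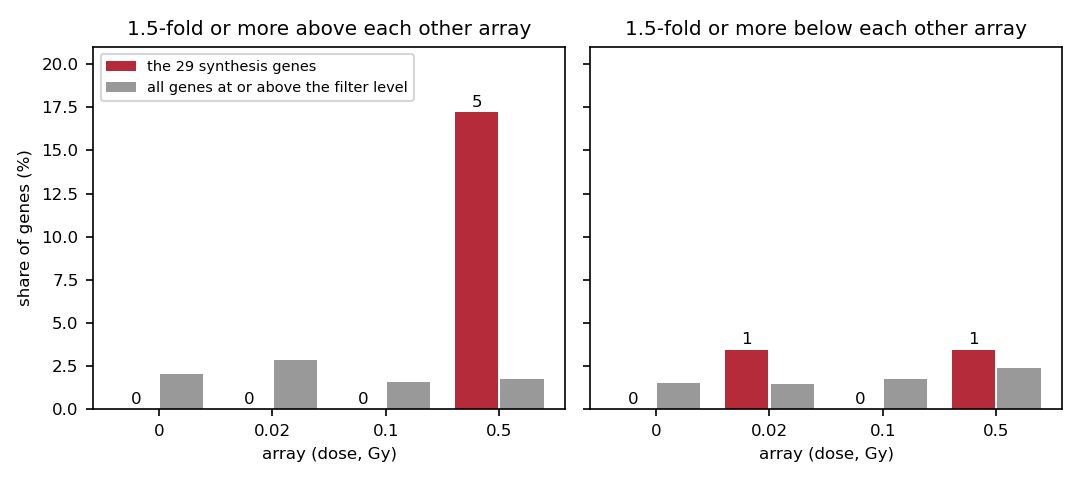
Share of genes (vertical axis, %) in which an array stood at least 1.5-fold above (left) or below (right) each of the other 3, for the 29 genes (red, with their number) and for all genes at or above the filter level (grey). The 0.5 Gy array stood above the others in 5 of the 29 genes, and the other arrays in 0.

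Only Msmo1, Hsd17b7 and Insig1 had 4 values that increased with each dose, 3 of 29 members, where 1.94% of genes at or above the filter level did. The values decreased with each dose in 0 members and in 2.94% of those genes, so that 0 of 29 is near the background. Most of the step in Msmo1 and Insig1 fell between 0.1 and 0.5 Gy, at 0.77 and 0.78, whereas the step of Hsd17b7 was 0.64 between 0.02 and 0.1 Gy and 0.34 between 0.1 and 0.5 Gy.

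Tests across all 23185 named genes used limma. In the fit of the 3 irradiated arrays against 0 Gy, differences between the irradiated doses counted as error, and the same spread was taken to hold for the single 0 Gy array. It called 0.919% of genes at an adjusted p under 0.05 and 1 of the 29 members, Insig2, with a difference of -0.54 ± 0.01 (SE) and an adjusted p of 0.0456. The SE is this small because the 3 irradiated values are tied, and the call was lost when genes below the filter level were left out, after each of 3 other normalizations and without any 1 irradiated array. At an unadjusted p under 0.05 it gave 3 members, Insig2, Scd2 and Tm7sf2, where 11.8% of all named genes passed.

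In the limma fit of a straight line in dose, 0.00% of genes and 0 of 29 members were called. At an unadjusted p under 0.05 it gave 7 members, beside 13.7% of all named genes. The steepest slope among them was that of Idi1, at 3.80 ± 0.92 (SE) log2 units per Gy, higher than 0 Gy on 1 of the 3 irradiated arrays, with an adjusted p of 0.306. Insig1 had 1.92 ± 0.10 and Msmo1 2.05 ± 0.17, each above 0 Gy on 3 of 3 irradiated arrays, and an adjusted p of 0.216. Hmgcs1, Mvk and Ebp were the others with a positive slope, and Elovl6, at -1.16 ± 0.13, was the single one with a negative slope. These fits have 2 residual degrees of freedom, and a p above the threshold does not show that the dose had no effect.

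Because the members higher at 0.5 Gy include known SREBP targets, the promoter sequences around their start sites are shown, with those of the 2 members lower at that dose. Sequences of 300 bases spanning the RefSeq start site, in build GRCm38.p6, were given for 23 members. Capitals mark matches on either strand to any of 4 motifs: TCACNCCAC, the core of the sterol regulatory element, CACGTG, the E-box, CCAAT, the box bound by NF-Y, and GGGCGG, the box bound by Sp1. NF-Y and Sp1 are known to work beside SREBPs at sterol genes. A match is a run of letters and not a binding site, and the Acaca window may not hold the promoter of that gene.
Hmgcs1 (chr13:119690101-119690400, strand +): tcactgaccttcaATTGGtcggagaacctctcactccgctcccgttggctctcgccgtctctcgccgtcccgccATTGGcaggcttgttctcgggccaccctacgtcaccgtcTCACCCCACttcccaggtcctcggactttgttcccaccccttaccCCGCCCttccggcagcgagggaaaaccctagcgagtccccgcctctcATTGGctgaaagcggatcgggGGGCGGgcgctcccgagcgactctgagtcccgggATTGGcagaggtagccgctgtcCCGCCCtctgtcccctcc
Mvd (chr8:122443373-122443672, strand -): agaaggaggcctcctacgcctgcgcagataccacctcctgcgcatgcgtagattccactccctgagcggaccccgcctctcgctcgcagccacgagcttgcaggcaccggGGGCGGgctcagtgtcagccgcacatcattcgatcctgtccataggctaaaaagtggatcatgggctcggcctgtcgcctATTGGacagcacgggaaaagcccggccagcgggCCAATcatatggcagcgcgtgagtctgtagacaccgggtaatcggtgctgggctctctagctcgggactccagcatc
Idi1 (chr13:8885356-8885655, strand +): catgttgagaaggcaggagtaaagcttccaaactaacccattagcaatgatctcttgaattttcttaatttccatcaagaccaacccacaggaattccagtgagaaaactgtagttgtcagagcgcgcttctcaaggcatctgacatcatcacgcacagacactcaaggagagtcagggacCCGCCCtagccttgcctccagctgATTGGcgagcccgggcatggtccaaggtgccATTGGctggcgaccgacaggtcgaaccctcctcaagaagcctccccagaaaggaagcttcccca
Msmo1 (chr8:64733529-64733828, strand -): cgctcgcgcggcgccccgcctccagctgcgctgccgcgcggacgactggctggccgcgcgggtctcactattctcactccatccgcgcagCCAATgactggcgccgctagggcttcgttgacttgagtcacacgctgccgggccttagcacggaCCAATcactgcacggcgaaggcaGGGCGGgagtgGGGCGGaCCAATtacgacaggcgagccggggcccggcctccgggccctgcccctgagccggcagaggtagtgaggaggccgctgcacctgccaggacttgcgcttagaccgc
Hsd17b7 (chr1:169969156-169969455, strand -): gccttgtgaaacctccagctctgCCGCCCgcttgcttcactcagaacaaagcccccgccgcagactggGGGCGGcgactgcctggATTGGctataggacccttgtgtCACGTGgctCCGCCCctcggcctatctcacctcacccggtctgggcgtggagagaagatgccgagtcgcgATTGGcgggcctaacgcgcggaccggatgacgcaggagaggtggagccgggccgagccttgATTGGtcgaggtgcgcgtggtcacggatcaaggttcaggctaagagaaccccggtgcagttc
Insig1 (chr5:28071162-28071461, strand +): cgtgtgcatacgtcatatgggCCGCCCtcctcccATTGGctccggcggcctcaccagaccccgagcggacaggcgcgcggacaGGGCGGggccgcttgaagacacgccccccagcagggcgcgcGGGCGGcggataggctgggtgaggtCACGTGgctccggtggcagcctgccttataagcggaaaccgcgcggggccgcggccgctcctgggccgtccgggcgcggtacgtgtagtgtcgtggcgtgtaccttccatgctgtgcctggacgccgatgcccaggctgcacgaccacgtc
Acaca (chr11:84195188-84195487, strand +): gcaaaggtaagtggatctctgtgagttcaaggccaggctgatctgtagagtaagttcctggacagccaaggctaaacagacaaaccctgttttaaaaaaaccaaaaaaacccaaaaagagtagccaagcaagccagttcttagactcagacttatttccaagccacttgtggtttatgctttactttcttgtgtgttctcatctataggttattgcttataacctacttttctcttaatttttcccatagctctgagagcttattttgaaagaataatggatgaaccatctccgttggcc
Elovl6 (chr3:129532136-129532435, strand +): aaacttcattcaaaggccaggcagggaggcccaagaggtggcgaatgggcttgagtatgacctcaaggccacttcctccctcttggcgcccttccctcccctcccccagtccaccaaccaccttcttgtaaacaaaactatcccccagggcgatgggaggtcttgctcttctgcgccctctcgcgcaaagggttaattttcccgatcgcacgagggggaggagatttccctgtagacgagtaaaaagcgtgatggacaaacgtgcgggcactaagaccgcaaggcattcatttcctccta

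The NF-Y letters CCAAT were in at least 1 window of all 14 cholesterol enzymes with a sequence, in 4 of 5 regulators and in 2 of 4 fatty acid genes. Among all 27025 genes with a RefSeq window, 41.1% held them, and among array genes at or above the filter level 42.7%. The 3 members without a match were Scap, Acaca and Elovl6, of which the last 2 were the genes lower at 0.5 Gy. The Acaca window may not hold the promoter of that gene, so its lack of CCAAT or GGGCGG may not be that of its promoter. GGGCGG was in 19 of the 23 members, against 68.7% of genes at or above the filter level and 38.2% of all genes; Acaca and Elovl6 were again among those without it, with Fasn and Pmvk. The core TCACNCCAC was found in Hmgcs1 alone, 1 of 23, where 1.44% of all genes and 1.30% of genes at or above the filter level held it, and its absence from these windows says only that these exact letters are not there. CACGTG was in 5 of 23, Hsd17b7, Sc5d, Dhcr7, Insig1 and Scap, beside 8.09% of all genes and 11.9% of genes at or above the filter level. The 6 genes higher at 0.5 Gy all held both CCAAT and GGGCGG. So did Lss, Cyp51, Tm7sf2, Srebf2, Mvk, Dhcr7, Sc5d, Ebp, Nsdhl, Srebf1, Acly and Insig2, which were within 1.5-fold at that dose. For Insig2 the motifs lay in different windows. Of the sequenced members within 1.5-fold, only Pmvk and Fasn lacked GGGCGG and only Scap lacked CCAAT. Holding both motifs thus did not set the higher genes apart from most members within 1.5-fold. The share of all genes with both was not computed. The windows of Acaca and Elovl6 had 39.7% and 55.7% of G and C bases, against a median of 62.3% for the members' windows and 60.7% for genes at or above the filter level. For Acaca this share, too, may not be that of its promoter.

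**Figure D4:**
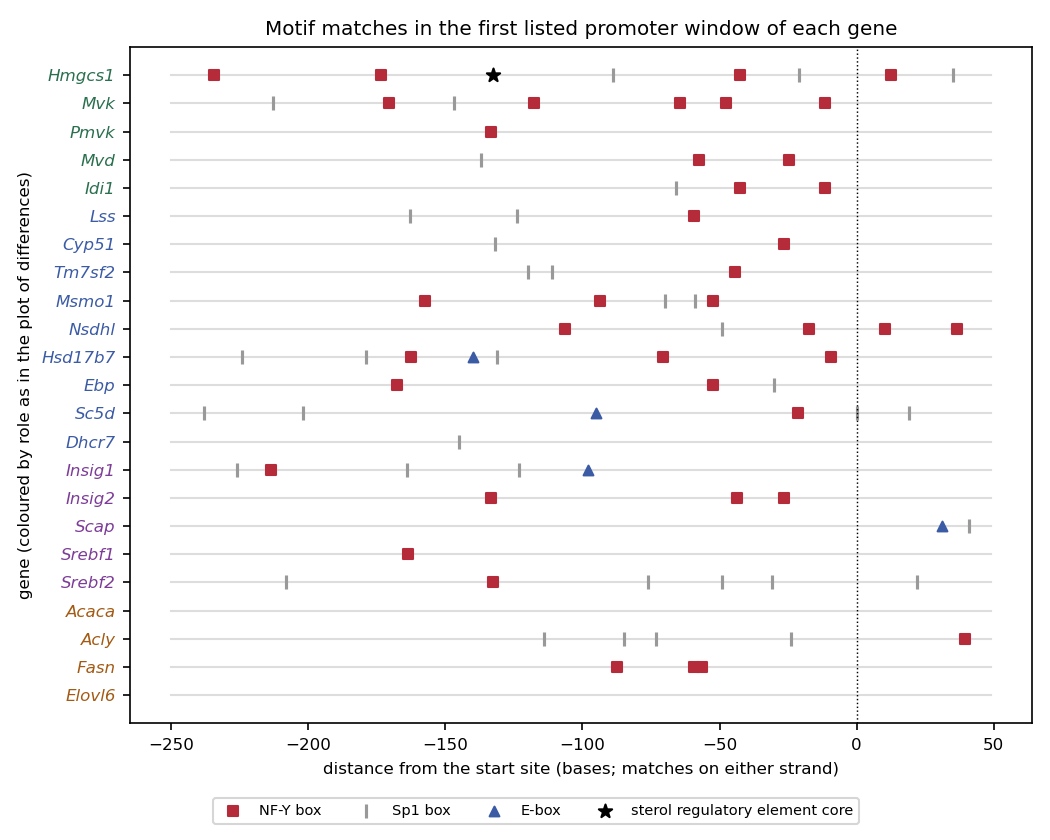
Matches to 4 motifs in the first listed promoter window of 23 genes, by distance from the start site in bases (horizontal axis). Red squares are CCAAT, grey bars GGGCGG, blue triangles CACGTG and the star TCACNCCAC. The rows of Acaca and Elovl6 are empty, and the Acaca window may not hold the promoter of that gene.

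Further genes of sterol and fatty acid metabolism were described by the same counts, and their difference from the members was not tested. Of 20 measured genes of further synthesis steps, SREBP processing and lipid uptake, 0 reached 1.5-fold in either direction at any of the 3 doses, and their medians were 0.00; at 0.5 Gy the shares over all named genes, 4.36% and 5.39%, make 0 of 20 close to the background. Among them Rdh11, a retinol dehydrogenase, was at -0.52, -0.06 and 0.24, Tmem97, a sterol-responsive protein of the endoplasmic reticulum, at 0.38, 0.48 and 0.17, and Acss2, which makes acetyl-CoA from acetate, at -0.03, 0.44 and -0.27. Of these 20 genes, 7 were below the filter level on all 4 arrays. Genes of sterol efflux, storage and transport had medians of 0.02, 0.00 and 0.00 over 19 measured genes. At 0.02 Gy 2 were higher, Apoc1, an apolipoprotein, at 0.82 and the cholesterol-binding Stard3 at 0.60, and at 0.1 Gy Stard3 at 0.93. At 0.5 Gy 1 was higher, Stard3 at 0.67, and 1 lower, the LXR target Lpcat3, a lysophospholipid acyltransferase, at -1.01. Lpcat3 measured 8.72, 8.47, 8.41 and 7.71 with increasing dose. The main sterol efflux pumps were within 1.5-fold, Abca1 at -0.39 and Abcg1 at 0.15 at 0.5 Gy. Of 12 measured genes of fatty acid oxidation, 1 was lower at 0.5 Gy, the very-long-chain acyl-CoA dehydrogenase Acadvl at -0.60, and 0 higher; Acadm, the medium-chain enzyme, was at -0.58, just within 1.5-fold. Ehhadh, a peroxisomal oxidation enzyme, had 3.46, 5.55, 4.38 and 3.67, the same order of arrays as Scd1, with the highest value at 0.02 Gy. Its values at 0 and 0.5 Gy lay below the filter level of 4.06, so their order and the size of its differences are uncertain.

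Markers of other blood cells also differed between these arrays. Of 13 measured erythroid genes, 8 exceeded their 0 Gy value by 1.5-fold or more at 0.5 Gy, 6 did at 0.1 Gy and 1 did at 0.02 Gy, and the median differences were 0.99, 0.52 and 0.15. Lower by as much were 0, 0 and 1 of them. Their summed linear intensity was 3007, 2347, 3640 and 4196 with increasing dose. The brightest genes weigh most in this sum. Car2 had 11.03, 10.63, 10.89 and 10.80, below 0 Gy at each dose, and Car1 had 8.42, 7.59, 9.77 and 10.34. The haem synthesis gene Alas2 was below the filter level on all 4 arrays, and the globin gene Hbb-bs had 2.12, 2.84, 2.76 and 4.19. Of 15 neutrophil and granulocyte progenitor genes, 6 were past 1.5-fold on the higher side at 0.5 Gy and 0 on the lower side, and 6 lay below the filter level on all arrays; their summed intensity was 410, 779, 1298 and 712. Another list held 6 genes, most with products that the sort or the cell type would leave out. Ptprc, a general leukocyte gene, is not left out by the named sort markers and measured 8.89, 9.05, 8.70 and 8.81 with increasing dose. Of the 6 genes, 1 was higher and 0 lower at 0.5 Gy, with a median of 0.00. That gene was Cd34, found on progenitors downstream of these cells, with 8.68, 7.79, 9.77 and 9.70, while Flt3 was at 0.30, Cd48 and Cd3e at 0.00, and Il7r and Ptprc at -0.08. Of 9 B and plasma cell genes, 1 was higher and 2 lower at 0.5 Gy, Jchain at -2.43 and Cd79b at -0.79, and the summed intensity of the list was 1491, 2775, 842 and 683 with increasing dose. Of 7 monocyte and macrophage genes 0 were higher and 1 lower at 0.5 Gy, Ly6c2 at -1.56, and of 7 endothelial and stromal genes 0 were higher and 2 lower, Cxcl12 at -0.82 and Kdr at -0.59. At 0.02 Gy, where Scd1 was highest, 4 of 9 B and plasma cell genes and 4 of 8 long-term stem cell genes were higher, and 7 of 11 proliferation genes were lower; at 0.5 Gy 0 of 11 proliferation genes were higher or lower. For comparison, the shares of all named genes past 1.5-fold at 0.5 Gy were 4.36% upward and 5.39% downward. At or above the filter level they were 5.92% and 8.25%. At 0.02 Gy the shares of all named genes were 4.59% and 4.27%. Beside such shares, 0 or 1 gene in a list of 6 to 11 is close to the background. No marker list was tested against these shares. The part of the listed cell types in the differences of the lipid genes was not tested. In RNA from a sorted population, a change in the share of a cell type and a change per cell cannot be told apart.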

How the data were processed

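One array per dose was used, 4 in all, and arrays were grouped by the labelled dose. Per the labels, total RNA was turned into biotin-labelled cDNA for an Affymetrix whole-transcript array. The authors deposited log2 intensities, 1 for each Entrez gene; no source states the base, which was read from the span of the values, 1.22 to 13.0. Partek is named, per the submitters' processing notes, without role or version; the steps of background correction and normalization, and the build, were not given in the sources used here. Symbols came from the platform's annotation table, which named 23185 probe sets; the 2021 it did not name were left out. Differences of log2 values were computed with no filter on low values unless stated. limma 3.58.1, under R 4.3.3, was run on all named genes with lmFit and eBayes, two-sided, with Benjamini-Hochberg adjustment and a threshold of 0.05. Its script was tested on simulated data. At a log2 change of 1, the fit of irradiated arrays against 0 Gy recovered 5 of 50 changed genes. The line in dose, with that change at the highest dose, recovered 6 of 50. At a log2 change of 2 these were 17 and 26 of 50, so the fits miss most changes near 2-fold. The members and all gene lists were chosen with earlier results of these data known. All members are accounted for. Values on every array are printed for those past 1.5-fold at any dose and for Srebf1, Srebf2, Scap and Insig2; Scd2 was added after its values were seen. From each further pathway list up to 4 genes with the largest difference are named; Abca1, Abcg1 and the marker genes were added after their values were seen. In these lists 20 of 26, 19 of 22 and 12 of 15 genes were measured, and the others were not analysed here. Precision is limited by the number of arrays, which have no read depth. Alternatives tried were 3 normalizations (quantile, median centring and cyclic loess), the filter, looser and stricter fold levels, a reference made of the other 3 arrays, an intensity trend in eBayes, other dose scales and leaving out each array.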

Additional observations from a re-analysis of the deposited data

How the results depend on the processing

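Quantile normalization, median centring and cyclic loess shifted no member's difference from 0 Gy by more than 0.09, and none of the 261 single-gene values obtained under them moved by 0.1 or more. In 4 of them a difference under 0.1 changed sign: Nsdhl at 0.5 Gy was 0.01 after quantile normalization and after median centring, Acly at 0.1 Gy 0.02 after quantile normalization, and Cyp51 at 0.02 Gy 0.00 (just below 0) after median centring. Of values past 1.5-fold none changed sign, and 4 of 42 values past 1.5-fold came to lie within it, all for Acaca or Elovl6. The count of members lower at 0.5 Gy, 2 as reported, was 0 after quantile normalization and 1 after median centring or cyclic loess. With the mean of the other 3 arrays as the reference, 3 members were lower at 0.02 Gy, 1 was higher and 2 lower at 0.1 Gy, and 1 was lower at 0.5 Gy; the medians were then 0.0435 at 0.1 Gy and 0.0949 at 0.5 Gy. At 2-fold, 0 were lower at 0.02 Gy, 0 higher at 0.1 Gy and 0 lower at 0.5 Gy. At a looser level, a log2 difference of 0.32, 5 were higher and 6 lower at 0.02 Gy, 10 higher and 3 lower at 0.1 Gy, and 14 higher at 0.5 Gy. Settings for arrays that stand apart were chosen after seeing the data: the 5 members with 0.5 Gy above each other array became 1 at 2-fold and 8 at the looser level, and the 1 below became 0 after each normalization and at 2-fold, and 2 at the looser level. The 1 member called in the fit of irradiated arrays became 0 after each normalization, with the filter and without any 1 irradiated array (0 to 0), and stayed 1 with an intensity trend; the line in dose called 0 members in each of its alternatives. No paired analysis was possible because each dose has 1 array and the labels give no replicate numbers. The causes of these shifts were not tested, beyond the fold level or the number of genes and arrays that a setting itself alters.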

Other observations

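Mir33, a microRNA gene that lies within Srebf2 and whose product is known to act on sterol efflux genes, had log2 intensities of 1.98, 1.98, 2.43 and 1.98 in order of dose, far below the filter level of 4.06, while its host Srebf2 lay above 9. Idi2, the paralogue of Idi1, was at 2.88, 2.92, 3.38 and 2.73, below the filter level on all 4 arrays, so its values do not show whether it differed as Idi1 did. Both genes were looked up for their position or kinship and not by a rule.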
